A study of Mus musculus with 2 samples.

Results

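The genes described here encode 8 secreted defence proteins (Trf, Ltf, Lcn2, Wfdc18, Slpi, Pigr, Saa1 and Lpo), read from the adult mouse mammary epithelium. They are 8 of the 27998 genes listed for the series and were taken by symbol. Single cells were profiled as 2 Chromium libraries of 3' end counts from adult FVB/NJ mice, 8 mice in all and pooled within a library, with no treatment. One library (total epithelium, 3302 cells) held cells negative for blood and endothelial surface markers and positive for CD24. The other (sorted basal, 4771 cells) held the part of such cells with high CD29. The total epithelium cells were split by summed counts of keratin, smooth muscle and hormone-sensing genes: 1280 basal cells (10 or more counts of Krt5, Krt14 and Acta2), 1133 mature luminal (ML) cells (10 or more counts of Prlr, Stc2 and Gpx3) and 766 luminal progenitor (LP) cells (at least 3 counts of Krt8, Krt18 and Krt19 and in neither other class). No count of the 8 genes was used for the split. A further 26 cells passed both the basal and the ML cut-off and 97 met none of these conditions. Near the cut-offs, 112 of the basal and 224 of the ML cells had sums of 10 to 19, and 13 LP cells had keratin sums of 3 to 5.

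Milk and the fluid of the resting gland carry proteins that starve, trap or kill microbes. Iron carriers (transferrin from Trf, lactoferrin from Ltf) withhold iron, lipocalin-2 from Lcn2 binds the iron-scavenging molecules of bacteria, and small inhibitors with whey acidic protein domains (Slpi, Wfdc18) restrain proteases. The polymeric immunoglobulin receptor from Pigr carries antibodies into secretions, lactoperoxidase from Lpo makes oxidants, and Saa1 encodes an acute-phase apolipoprotein. Luminal progenitors are the luminal cells that give rise to milk-secreting alveoli, whereas ML cells carry hormone receptors and basal cells contract.

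To show the start regions of genes with different patterns over the classes, the 250 bases before the RefSeq start site (GRCm38.p6, 5' to 3' on the gene's strand) are given for Ltf and Wfdc18, which were highest in LP cells, for Lcn2, which was high in LP and basal cells, and for Slpi, which was highest in basal cells. Capitals mark a C/EBP match (TTGCNNAA, either strand) or an ETS match (AGGAAG, either strand).
Ltf: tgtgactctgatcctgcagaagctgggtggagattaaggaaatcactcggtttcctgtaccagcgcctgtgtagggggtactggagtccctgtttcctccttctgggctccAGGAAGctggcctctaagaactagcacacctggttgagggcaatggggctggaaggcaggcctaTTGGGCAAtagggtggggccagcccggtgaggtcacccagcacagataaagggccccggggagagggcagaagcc
Wfdc18: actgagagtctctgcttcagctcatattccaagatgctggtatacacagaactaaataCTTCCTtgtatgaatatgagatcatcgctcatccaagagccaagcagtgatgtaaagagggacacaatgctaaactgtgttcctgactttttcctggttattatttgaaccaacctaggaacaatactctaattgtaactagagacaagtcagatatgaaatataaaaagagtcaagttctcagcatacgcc
Lcn2: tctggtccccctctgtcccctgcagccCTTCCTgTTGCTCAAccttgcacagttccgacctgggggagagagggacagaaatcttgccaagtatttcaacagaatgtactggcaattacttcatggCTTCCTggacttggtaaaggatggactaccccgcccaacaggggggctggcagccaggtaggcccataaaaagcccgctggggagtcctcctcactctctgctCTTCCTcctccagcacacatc
Slpi: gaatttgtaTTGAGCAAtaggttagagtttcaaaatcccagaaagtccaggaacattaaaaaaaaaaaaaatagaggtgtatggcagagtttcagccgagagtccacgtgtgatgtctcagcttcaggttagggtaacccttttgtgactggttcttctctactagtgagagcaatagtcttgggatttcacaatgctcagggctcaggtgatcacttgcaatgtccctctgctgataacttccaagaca
These stretches lie at chr9:111019042-111019291 (plus strand), chr11:83708754-83709003 (plus), chr2:32387740-32387989 (minus) and chr2:164356508-164356757 (minus). The gene spans given below come from GENCODE, whose starts can differ from those of RefSeq. The Slpi and Lcn2 stretches lie inside those spans, and the Ltf stretch overlaps its span. Promoters were listed for 7 of the 8 genes, and each was searched from 250 bases before to 50 after the start. A C/EBP match was found in 4 of the 7 (Lcn2, Ltf, Saa1 and Slpi), against 10.8% of the 32851 promoters listed. An ETS match was found in 4 of the 7 (Lcn2, Ltf, Wfdc18 and Pigr), against 35.4% of all promoters, and Lcn2 had 3. A STAT match (TTCNNNGAA, either strand) was found in Pigr alone, 39 to 47 bases after the start and overlapping its ETS match, against 8.3% of all promoters. Both NF-kB consensus patterns searched, on either strand, were found in none of the 7, against 1.63% and 1.47% of all promoters. These matches describe letters in a window and not bound sites.

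The LP class was checked against 7 genes that the split did not use (Elf5, Kit, Cd14, Aldh1a3, Muc15, Plb1 and Btn1a1, LP markers below). At least one count of them was found in 87.2% of LP cells, 22.7% of ML cells and 7.66% of basal cells. With Csn3, all 8 LP markers were 2-fold or more higher in LP than in ML and than in basal cells, with median folds of 10.5 and 23.4. Of all genes measured, 9.75% were so over ML and 11.6% over basal cells. Over basal cells Kit, Aldh1a3 and Plb1 reached the minimum of 30 counts only through their LP counts, so the filter bore on their direction. The total epithelium library held 9227651 counts (median 2425.5 a cell) and the sorted basal library 2488704 (median 487 a cell), and 28 barcodes occurred in both. Median counts a cell were 2483.5 in LP, 3403 in ML and 1820 in basal cells. Each class comes from 1 library, so there is no replicate error and no test, and all intervals (95%, exact) cover counting error only. Levels are counts per 1000000 (CPM) summed over the cells of a class.

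Transferrin was the member with the largest count. Trf (ENSMUSG00000032554, chr9:103204001-103230444, minus strand, GRCm38) had 94903 counts in LP cells, a level of 43966 CPM (interval 43687 to 44247), so 4.4% of all LP counts. Its level was 3999 CPM in ML cells (3938 to 4061) and 2210 CPM in basal cells (2154 to 2267). LP cells were thus 11-fold above ML cells (10.8 to 11.2) and 19.9-fold above basal cells (19.4 to 20.4). At least 1 Trf count was found in 89.9% of LP cells (87.6 to 92), in 39.3% of ML cells and in 55.3% of basal cells, but the detected cells held a mean of 138 counts in LP, 37.1 in ML and 8.28 in basal. Both the share of cells and the counts per detected cell were thus highest in LP cells.

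Lactoferrin was found in part of the LP cells. Ltf (ENSMUSG00000032496, chr9:111019271-111042767, plus strand) had a level of 2912 CPM in LP (2841 to 2985), 296.9 in ML (280.5 to 314) and 35.8 in basal cells (29 to 43.8). The LP level was 9.81-fold the ML level (9.23 to 10.4) and 81.3-fold the basal level (66.4 to 101). A count was found in 52.3% of LP cells (48.7 to 55.9), 10.2% of ML cells and 2.73% of basal cells. Of the 95 Ltf counts in basal cells, 68.4% lay in the 98 basal cells with an LP marker count.

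Wfdc18 followed the same order at a lower count. Wfdc18 (ENSMUSG00000000983, chr11:83709015-83711348, plus strand) had 493.9 CPM in LP (464.6 to 524.4), 40.9 in ML (35 to 47.5) and 13.2 in basal cells (9.19 to 18.4). The LP level was 12.1-fold the ML level (10.3 to 14.3) and 37.4-fold the basal level (26.7 to 54). A count was found in 44% of LP, 6.18% of ML and 1.33% of basal cells. The adjacent family members Wfdc17, 2747 bases away, and Wfdc21 had no count in the total epithelium library.

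Lipocalin-2 was shared between LP and basal cells. Lcn2 (ENSMUSG00000026822, chr2:32384633-32388252, minus strand) had 5311 CPM in LP (5215 to 5410), 1807 in basal (1756 to 1859) and 540.1 in ML cells (517.9 to 562.9). The LP level was 2.94-fold the basal level (2.84 to 3.04) and 9.83-fold the ML level (9.4 to 10.3). The share of cells with a count was 86.7% in LP (84.1 to 89) and 83.3% in basal (81.1 to 85.3), with a mean of 17.3 counts in detected LP cells and 4.5 in detected basal cells. ML cells, deeper than both, had a count in 17.7%.

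Slpi went against the label of an LP protein. Slpi (ENSMUSG00000017002, chr2:164354070-164389095, minus strand) had 3581 CPM in basal cells (3510 to 3654), 667.3 in ML (642.7 to 692.7) and 124.2 in LP (109.7 to 139.9). The basal level was 28.8-fold the LP level (25.5 to 32.7) and the ML level was 5.37-fold the LP level (4.74 to 6.12). A count was found in 66.8% of basal, 23.6% of ML and 8.49% of LP cells. Of the 5 genes with 30 or more counts in both comparisons it was the only one with its lowest level in LP cells.

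Pigr, Saa1 and Lpo were near or below the limit of detection. Pigr (ENSMUSG00000026417, chr1:130826684-130852249, plus strand) had 27 counts in 23 LP cells (3% of them, 1.91 to 4.47) and 1 count each in ML and basal cells, a ratio of 51.7 over ML with an interval of 8.52 to 2117. Saa1 (ENSMUSG00000074115, chr7:46740497-46742980, minus strand) had 28 counts in 12 LP cells, of which 1 cell held 21.4%, 2 counts in 1 ML cell and none in basal cells. Its near-identical neighbour Saa2, 8810 bases away, had 23 counts, all of them in LP cells among the 3 classes, and reads of the pair cannot be assigned with certainty. Lpo (ENSMUSG00000009356, chr11:87806428-87828289, minus strand) had no count in any of the 3 classes, so a limit of 3 counts was set in place of an interval: 1.39 CPM and 0.392% of cells with a count in LP, 0.726 CPM in ML and 1.13 CPM in basal. These limit counted molecules and not the share of cells that express the gene. In the sorted basal library it had 3 counts in 3 cells.

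**Figure D1:**
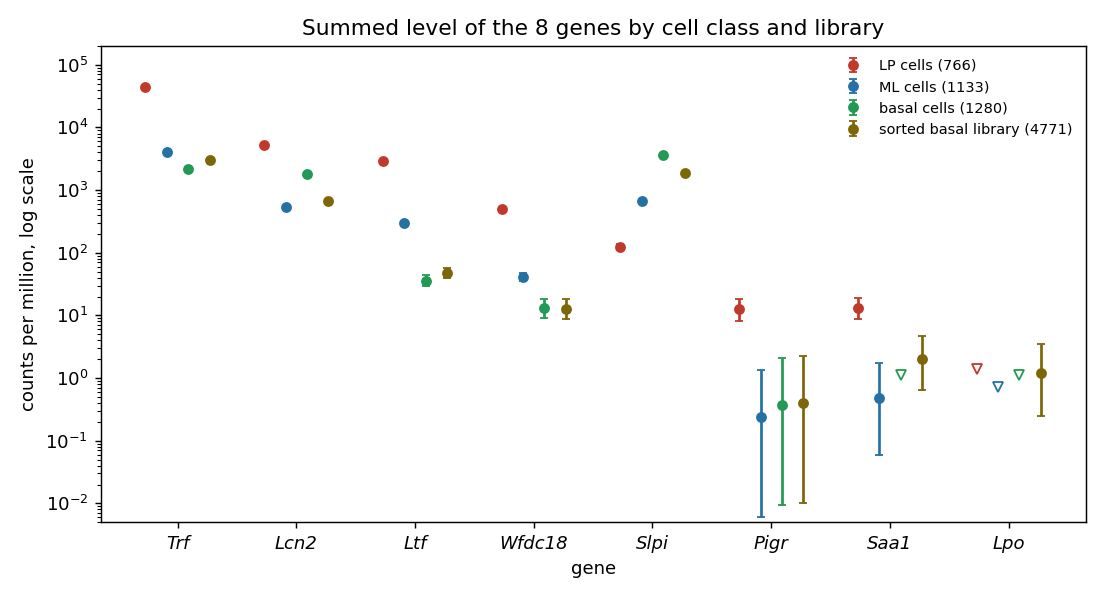
Levels of the 8 genes in counts per 1000000 (log axis) in LP, ML and basal cells of the total epithelium library and in the whole sorted basal library; bars are exact 95% Poisson intervals and open triangles are the limit that 3 counts set where none was found. Trf, Lcn2, Ltf and Wfdc18 are highest in LP cells, Slpi is highest in basal cells (3581 CPM) and lowest in LP cells (124.2 CPM).

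Read against all genes, 6 of the 8 genes had 30 or more counts over LP and ML, and 5 of these (Trf, Ltf, Lcn2, Wfdc18 and Saa1) were 2-fold or more higher in LP. Among all 8950 genes so measured 9.75% were 2-fold or more higher in LP than in ML, and 17% were 2-fold or more lower, as Slpi was. Saa1 reached the minimum of 30 counts only through its 28 counts in LP cells, so its place among the 5 was set by the filter. Over LP and basal cells 5 of the 8 genes were measured, and 4 (Trf, Ltf, Lcn2 and Wfdc18) were 2-fold or more higher in LP, against 11.6% of 8653 genes. Slpi was lower, as were 21.1% of those genes by 2-fold or more. The median fold over all genes measured was 0.819 for LP over ML and 0.858 for LP over basal. At 4-fold in place of 2-fold, 5 genes stayed above ML, and Lcn2 no longer counted above basal, leaving 3.

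Depth differed between the classes, so each cell was thinned to 800 counts, which kept every cell. A Trf count was then found in 89.2% of LP, 22.2% of ML and 37.6% of basal cells. For Ltf these shares were 39.9%, 5.91% and 1.33%, and for Wfdc18 23.5%, 1.06% and 0.234%. For Lcn2 they were 80.8% in LP, 11.6% in ML and 64.1% in basal cells, and for Slpi 4.44%, 13.7% and 58.7%. The order of the classes for each of these 5 genes was the same as without thinning.

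**Figure D2:**
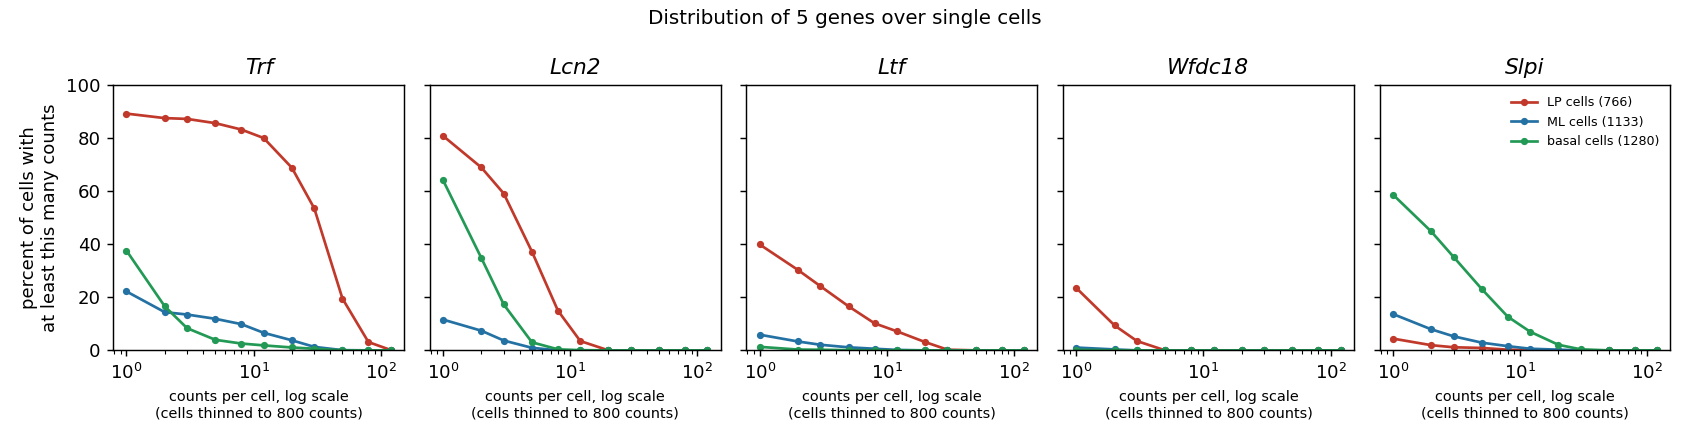
Percent of cells (vertical axis) with at least the number of counts on the horizontal log axis, for 5 genes, after thinning each cell to 800 counts; lines are LP, ML and basal cells. The Trf line of LP cells starts at 89.2% and is still at 80% at 12 counts, the Ltf line starts at 39.9% with a long tail, and Lcn2 starts at 80.8% in LP and 64.1% in basal cells.

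The ML counts of the LP-high genes sat in few cells. Of the 1133 ML cells, 137 (12.1%) had 3 or more LP marker counts. They held 18.3% of all ML counts but 92.2% of the Trf counts, 92.8% of Lcn2, 90.3% of Ltf and 88.2% of Wfdc18. Slpi behaved otherwise, with 10.4% of its ML counts in these cells. Within the 137 cells Trf was at 20112 CPM and found in 95.6%, Lcn2 at 2732 CPM and in 94.2%, and Ltf at 1462 CPM and in 51.8%. The median total in these cells was 5448 counts, against 3111.5 in the 876 ML cells without an LP marker count. Cells that joined both programmes and droplets that held 2 cells cannot be told apart by these values, and no doublet caller was run.

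Without those 137 cells LP was 116-fold above ML for Trf, 111-fold for Lcn2, 82.6-fold for Ltf and 83.3-fold for Wfdc18, against 11, 9.83, 9.81 and 12.1 with them. Slpi kept its direction. In the 876 ML cells with no LP marker count, Trf was at 219.9 CPM (203.1 to 237.7), Lcn2 at 24.3, Ltf at 11.8 and Wfdc18 at 1.39 CPM, from 4 counts. In the ML cells that lacked LP markers, each of these 4 genes was at or below 0.5% of its LP level.

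The basal class divided the members. In the 1182 basal cells without an LP marker count, Lcn2 was still at 1653 CPM (1602 to 1706) and found in 82.7% of cells, and Slpi at 3728 CPM (3651 to 3807) and in 66.5%. Trf was at 803.7 CPM (768.1 to 840.7) and found in 54.7%, with a mean of 2.94 counts where detected. Ltf was at 12.7 CPM, from 30 counts, and Wfdc18 at 1.69 CPM, from 4. Leaving out the 98 basal cells with an LP marker count, LP was 54.7-fold above basal for Trf, 230-fold for Ltf and 293-fold for Wfdc18, but 3.21-fold for Lcn2, close to the 2.94-fold over all basal cells. Without the deepest 5% of cells in each class the folds over basal were 39.6 for Trf, 137 for Ltf and 148 for Wfdc18.

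To compare genes of different abundance, the level outside the LP class was divided by the LP level. In ML cells without LP marker counts the ratio was 0.5% for Trf, 0.457% for Lcn2, 0.405% for Ltf and 0.281% for Wfdc18. Osteopontin from Spp1 was at 0.362%, and the milk protein genes lay between 0.0414% (Lalba) and 0.263% (Csn1s1), though the Wfdc18 interval (0.0764 to 0.721) spans most of that range. In the basal cells without LP marker counts Ltf (0.435%, 0.293 to 0.621) and Wfdc18 (0.342%, 0.0929 to 0.878) lay in the range of the milk protein genes, 0.222% (Csn1s2a) to 0.44% (Csn1s1), and of Spp1 (0.397%). Trf was at 1.83% (1.75 to 1.91) and Lcn2 at 31.1% (30 to 32.3) in the same cells. Spp1, whose LP level of 41912 CPM was close to that of Trf, was found in 22.2% of these basal cells, against 54.7% for Trf. Mfge8, a secreted protein of the milk fat globule that tags dying cells for uptake, was at 8.01% in basal and 2.84% in ML cells. The ratios thus differed between genes within each class, and the part of released RNA in them was not tested.

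**Figure D3:**
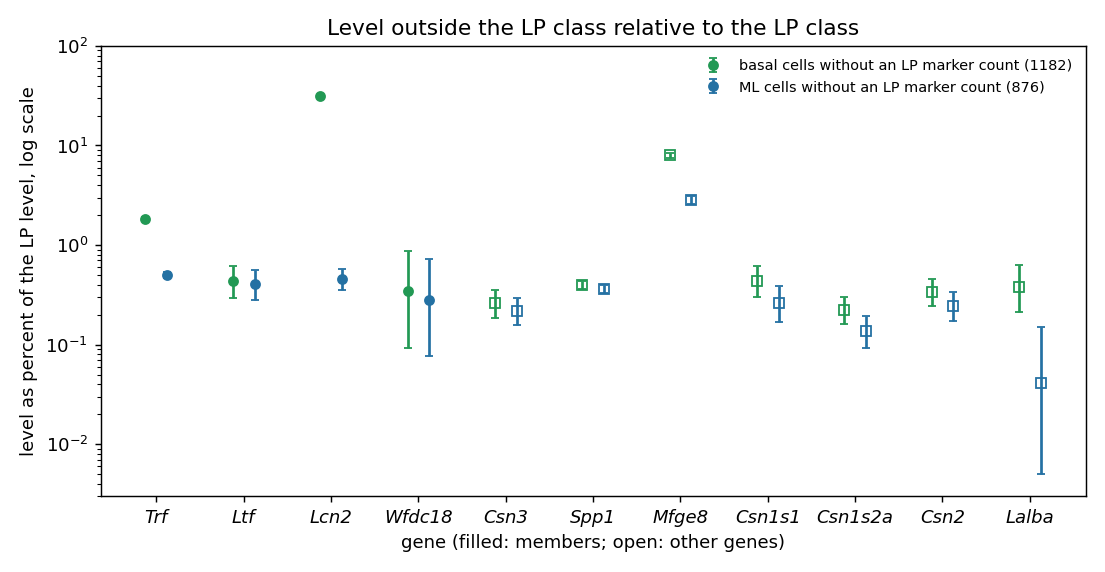
Level in basal and ML cells without an LP marker count, as percent of the LP level (log axis), for 4 members (filled) and 7 other LP-high genes (open); bars are exact 95% counting intervals. Lcn2 (31.1%), Mfge8 (8.01%) and Trf (1.83%) in basal cells lie above the other genes, which stay at or below 0.5% apart from Mfge8 in ML cells (2.84%); Slpi is left out because it exceeds its LP level.

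Among these basal cells Trf and Lcn2 moved with Chil1, a secreted chitinase-like protein and the gene that correlated best with each of them over all basal cells (Pearson 0.411 with Trf and 0.315 with Lcn2 over 1280 cells). This gene and the groups that follow were chosen after the values were seen. Chil1 was picked for its correlation over mostly the same cells. The direction in which Trf and Lcn2 differ between the groups thus follows from that choice and lends it no support. In 198 basal cells with 10 or more Chil1 counts and no LP marker count, Trf was at 1839 CPM (1715 to 1969) and Lcn2 at 2464 (2320 to 2614). In the 390 cells with 1 to 9 Chil1 counts they were at 760.7 and 1775 CPM, and in the 594 cells with none at 424.7 (387.4 to 464.7) and 1245 (1180 to 1312). Csn3 went the other way, at 2.26, 12.4 and 26.8 CPM, but from only 1, 10 and 30 counts. Spp1 did so at 115.1, 143.5 and 203 CPM. For both genes the intervals of the first 2 groups overlapped (0.0571 to 12.6 and 5.93 to 22.8 for Csn3). For Csn3 that of the third group (18.1 to 38.3) also overlapped that of the second. Slpi was at 2658 CPM in the cells rich in Chil1 and at 4077 in those without. Median totals in the 3 groups were 2041, 1841 and 1664.5 counts.

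The sorted basal library gave a second view of basal cells. Slpi was at 1843 CPM there, Trf at 2980, Lcn2 at 661, Ltf at 47.4, Wfdc18 at 12.9, Saa1 at 2.01 and Pigr at 0.402. With every cell thinned to 400 counts (1594 cells of the sorted library were shallower and left out), Slpi was found in 32.6% of sorted cells (31 to 34.3) and 48.6% of the basal class (45.8 to 51.4), and Lcn2 in 17.3% (16 to 18.7) and 44.8% (42.1 to 47.6). Trf was found in 25.2% (23.7 to 26.8) and 23.4% (21.1 to 25.9). Ltf was in 0.63% and 0.625% and Wfdc18 in 0.283% and 0.312%. Lcn2 and Slpi were thus found in a smaller share of sorted cells, and the intervals of Trf, Ltf and Wfdc18 overlapped. The basal class had to pass the cut-off on Krt5, Krt14 and Acta2, whereas the sorted library was taken whole, so unlike sets of cells were compared. The 2 sets differ in this cut-off and in sort, pool of mice and depth, whose parts cannot be told apart. In the 4668 sorted cells without an LP marker count Trf stood at 3.36% and Lcn2 at 11.7% of their LP level, against 10.4% for Mfge8, 0.181% for Csn3 and 0.098% for Spp1.

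Within the LP class the members differed in how they were spread over cells. The 8 genes together made up a median of 4.99% of a cell's counts, from 0% at the 5th to 9.84% at the 95th percentile, against medians of 0.0249% in ML and 0.453% in basal cells. After thinning, 48.2% of LP cells had counts of 3 or more of the genes, against 4.68% of ML and 13.3% of basal cells. The Trf count had a median of 91 and a 90th percentile of 278.5, and the top 10% of LP cells held 32.7% of it. The Ltf count had a median of 1 and a 90th percentile of 27, and the top 10% of cells held 62.7%. For Lcn2 that share was 33% and for Wfdc18 54%. At 800 counts a cell the variance over the mean was 15.4 for Trf, 11.2 for Ltf, 3.14 for Lcn2 and 1.7 for Wfdc18.

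The cut-offs reached into the edge of the class. The 98 LP cells without an LP marker count had Trf at 1650 CPM and in 25.5% of cells, against 47916 CPM and 99.4% in the other 668, and Slpi at 700.1 CPM against 70.4. The 116 LP cells with 3 to 9 counts of the ML genes had Trf in 43.1%, Lcn2 in 36.2% and Ltf in 24.1% of cells. Cells with at least 1 LP marker count and under 3 counts of both the basal and the ML genes numbered 621, called core LP cells here, and were set after the data were seen. In them Trf was found in 99.8%, Lcn2 in 97.4%, Ltf in 58.6%, Wfdc18 in 50.4% and Slpi in 6.44%. The edge of the class thus held the LP cells poor in Trf and Lcn2, whereas 257 of the 621 core cells still had no Ltf count.

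Over the core LP cells, thinned to 800 counts, the correlations between members were low. The Spearman correlation was 0.302 for Trf with Lcn2 and 0.21 for Ltf with Wfdc18, with negative values of -0.173 for Ltf with Trf, -0.221 for Wfdc18 with Trf, -0.151 for Ltf with Lcn2 and -0.185 for Wfdc18 with Lcn2. Spp1 correlated with Trf at 0.499 and with Lcn2 at 0.335, and with Ltf at -0.298. Over all 766 LP cells the values were 0.53 for Trf with Lcn2 and 0.247 for Ltf with Wfdc18, and those of Ltf turned to 0.047 with Trf and 0.034 with Lcn2, so their sign depends on which LP cells are taken. These values are descriptions. The cells share 1 library and a fixed total, of which Trf takes a mean of 36.9 counts in 800. A high count of a gene leaves less room for the others, and the part of this in the correlations was not tested.

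Summed levels were compared on either side of a detected count. Core LP cells with an Ltf count (364) had Wfdc18 at 677.7 CPM and Spp1 at 39850 CPM, against 341.2 and 55120 CPM in the 257 cells without. Trf was at 48283 and 49407 CPM and Csn3 at 7303 and 7456 CPM on the 2 sides. Median totals were 2764 counts with and 2288 without an Ltf count. Cells with a Wfdc18 count (313) had Ltf at 3993 CPM and Csn1s2a, a casein gene, at 10492 CPM, against 2419 and 5752 CPM in the 308 without, at median totals of 2861 and 2286 counts. With every core cell thinned to 800 counts, Wfdc18 was found in 37.5% of cells with and 19.4% of cells without an Ltf count, and Spp1 in 60.7% and 77.1%. Csn1s2a was then found in 31.6% of cells with and 31.1% of cells without a Wfdc18 count, so its difference in summed level did not show in the share of cells at equal depth.

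**Figure D4:**
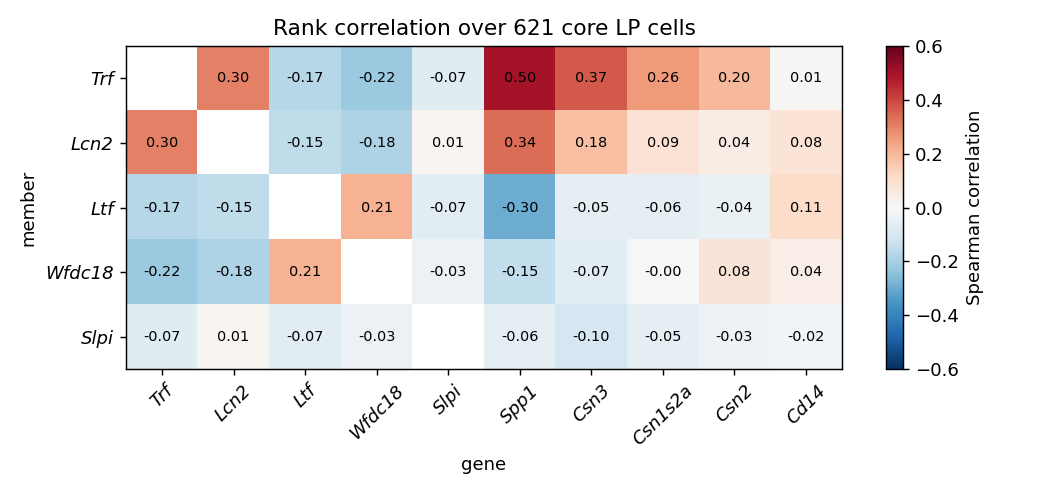
Spearman correlations over the 621 core LP cells, thinned to 800 counts, between 5 members (rows) and the members and 5 other LP genes (columns). Trf, Lcn2 and Spp1 correlate positively, Ltf and Wfdc18 correlate at 0.21, and the values of Ltf or Wfdc18 with Trf or Lcn2 are negative.

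The genes with the most similar pattern to the mean of the 8 over all 3302 cells, by the Pearson correlation of ln(1 + counts per 10000) among 5216 genes with 200 or more counts, were Mfge8 (0.715), Csn3 (0.706), Mgst1 (0.665), Cd14 (0.659), Plet1 (0.607), Cd81 (0.573), Cst3 (0.571) and Spp1 (0.565). Over the LP cells alone they were Mfge8 (0.783), Cd81 (0.697), Mgst1 (0.671), Itm2b (0.614), Plet1 (0.613), Csn3 (0.581), Cd14 (0.526) and Igfbp5 (0.481). Slpi taken alone had other neighbours over all cells, the basal keratins Krt17 (0.599) and Krt14 (0.592) and the chemokine Cxcl14 (0.585), and Krt17 led among basal cells alone (0.389).

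In ML cells Slpi was held by a minority. The 114 ML cells with 5 or more Slpi counts held 90.5% of the class's Slpi counts. Of these 114 cells, 78 had no count at all of Krt5, Krt14 or Acta2, against 782 of the 1019 other ML cells. The basal keratin Krt14 was at 31.6 CPM in the 114 cells and at 33.1 CPM in the other ML cells. In the 860 ML cells with no basal count Slpi was at 662.9 CPM (634 to 692.7), against 667.3 CPM over all ML cells. The 860 cells are part of the ML class and held 1985 of its 2758 Slpi counts, so the compared levels are not independent. Cells that passed the basal cut-off were already outside the ML class. Whether the Slpi counts in ML cells came from basal cells was not tested. The growth factor Areg was at 4399 CPM in the Slpi-rich and 2785 CPM in the other ML cells, whereas Ly6d was at 2683 and 3246 CPM, Ly6a at 529.6 and 579.5 and Reg3g at 22.3 and 58.7, at median totals of 4459.5 and 3310 counts.

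Ltf, Lcn2 and Slpi are also products of neutrophils and other blood cells. Cells with blood surface markers had been left out by the sort, so low counts of the 2 lists that follow were foreseeable. Among 8 neutrophil genes 7 had no count in LP cells, S100a9 and Ngp among them, and the list summed to 12 counts in LP (all S100a8), 5 in ML and 7 in basal cells. Of 6 leukocyte genes 5 had no count in LP cells, Ptprc included, and the list summed to 1 count in LP, 1 in ML and 5 in basal cells. Basal genes (11) summed to 231.2 CPM in LP cells against 48402 CPM in basal cells, and ML genes (12) to 1224 CPM in LP against 24284 CPM in ML cells. The basal list includes Krt5, Krt14 and Acta2, and the ML list includes Prlr, Stc2 and Gpx3. These genes set the split, so both contrasts were partly fixed by it and do not check the classes.

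Other secreted defence genes were laid out in the same way. Of 34 listed genes (Cd14 and Muc15 are also LP markers), 18 had 30 or more counts over LP and ML. Of these 13 were 2-fold or more higher in LP and 4 were lower, beside 9.75% and 17% of all genes, with a median fold of 6.41 against 0.819 over all genes. Over LP and basal cells 12 of 15 were higher and 2 lower, beside 11.6% and 21.1% of all genes, with a median of 8.56 against 0.858. Wfdc3 and Cfb in both comparisons, and Muc1 over basal cells, reached 30 counts only through their LP counts. Wfdc12, Defb1 and Reg3g over ML, C4b over basal cells and Rnase4 over both reached it only through the other class. The filter thus bore on their direction, and the list was chosen with earlier results of these data known. The lipopolysaccharide-binding protein gene Lbp was at 219.6 CPM in LP, 22.3 in ML and 25.6 in basal cells, and its partner receptor Cd14 at 2667, 277 and 113.5 CPM. Complement C3 (154.3 CPM in LP) was 4.79-fold above ML and 3.79-fold above basal cells, and the copper carrier ceruloplasmin from Cp (326.6 CPM) was 8.03-fold and 2.85-fold above them. The whey acidic protein family was divided among the classes: Wfdc3 was at 103.3 CPM in LP, 4.84 in ML and 5.28 in basal cells, whereas Wfdc2 was at 1072 CPM in ML, 117.2 in LP and 21.1 in basal cells. Reg3g, a lectin that kills bacteria, and Defb1, a defensin, were highest in ML cells, at 54 and 19.6 CPM, with 4.63 and 0.927 in LP. Chil1 (2426 CPM in basal, 1536 in LP, 155.3 in ML) was shared by basal and LP cells, as Lcn2 was, and the ribonuclease gene Rnase4 was at 219.1 CPM in basal, 12.1 in ML and 6.95 in LP cells.

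**Figure D5:**
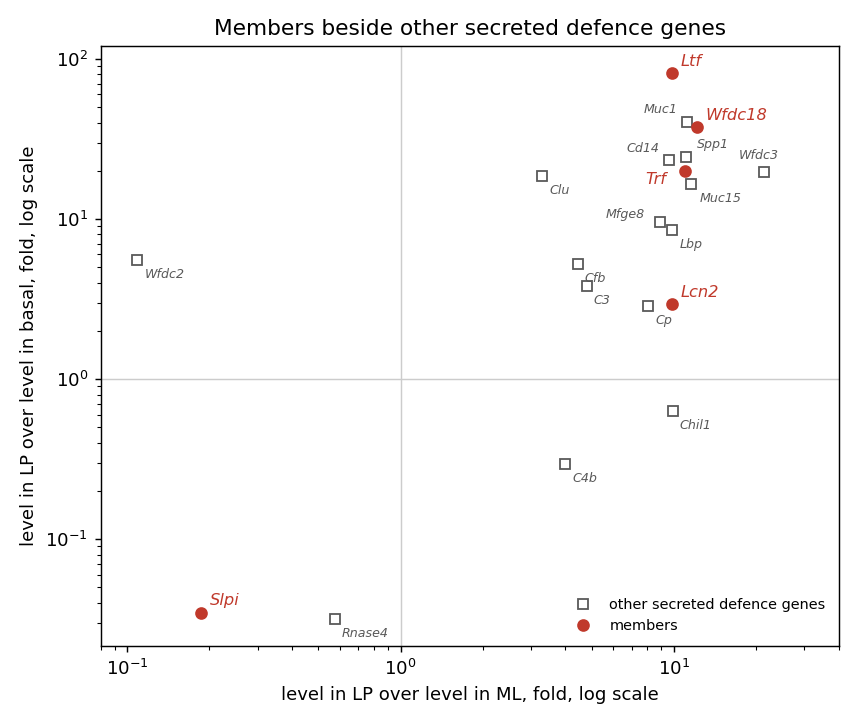
Level in LP over level in ML (horizontal) against level in LP over level in basal cells (vertical), both as folds on log axes, for 5 members (filled) and the 15 other secreted defence genes with 30 or more counts in both comparisons (open). Trf, Ltf and Wfdc18 lie in the upper right corner with Muc1, Spp1 and Cd14, Lcn2 lies lower at 2.94-fold over basal, and Slpi is alone with Rnase4 at the lower left.

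Genes around each member's function were counted as well. Of the peroxidase and oxidant supply genes (11), 3 were measured over LP and ML, of which 2 were higher and 1 lower. Both of 2 measured over basal cells were higher (Xdh at 7.91-fold and Duoxa1 at 12.3-fold). Of all genes 9.75% were higher and 17% lower over ML, and 11.6% were higher over basal. Xdh and Duoxa1 reached the minimum count only through LP cells, and Slc5a5 only through ML cells, so the filter bore on their direction. Xdh, which supplies oxidants to milk, was at 68.6 CPM in LP against 6.78 in ML, Duoxa1 was at 18.5 against 4.11, and the iodide carrier Slc5a5 was at 182 CPM in ML against 9.27 in LP. Lpo's neighbour Mpo and the related Epx had no count in LP cells. Of the receptors and iron partners (9), the transferrin receptor Tfrc was at 11.6 CPM in LP, 5.32 in ML and 13.6 in basal cells. Ferritin genes were high everywhere, Fth1 at 6789, 4237 and 6239 CPM in LP, ML and basal cells, and the iron exporter Slc40a1 was at 0.927, 13.6 and 6.41 CPM. On that list 1 gene was higher and 2 were lower of 6 in LP over ML, and 0 were higher and 1 was lower of 5 over basal cells, beside 9.75% higher and 17% lower of all genes over ML and 11.6% and 21.1% over basal. The lower genes, Lrp1 and Slc40a1, reached the minimum count only through the class other than LP. Jchain, which joins the antibodies that the Pigr product carries, had no count in the 3 classes.

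Of 16 measured genes of the NF-kB and cytokine response, 9 were 2-fold or more higher in LP than in ML and 1 was lower, and 9 were higher and 2 lower than in basal cells, with median folds of 2.31 and 2.19, beside 9.75% higher and 17% lower of all genes over ML and 11.6% and 21.1% over basal. Over basal cells Tnfaip3 and Il6ra reached the minimum count only through their LP counts, so the filter bore on their direction. The chemokine genes Cxcl1 and Cxcl2 were at 1986 and 1818 CPM in LP, 275.8 and 176.4 in ML and 356.4 and 62.6 in basal cells. The granulocyte growth factor gene Csf3 was at 926.5, 129 and 29 CPM. Socs3 and Icam1 were highest in basal cells, at 4517 and 1123 CPM against 378 and 91.7 in LP. All 5 measured milk protein genes of 8 listed were higher in LP, with median folds of 13.4 over ML and 32.1 over basal cells. The 5 listed genes with the highest LP level were Spp1 (41912 CPM), Csn1s2a (8166), Fth1 (6789), Csn3 (6649) and Mfge8 (6361).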

How the data were processed

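Counts were deposited by the authors as 2 sparse matrices of whole-number molecule counts per gene and cell, made with Cell Ranger 1.2.1 on the mm10 build per the labels, with no normalization. Cells were pooled per library, and none was filtered here. The cell numbers equal those in the labels. Members and gene lists were chosen with earlier results of these data known. Cells were classed by the stated sums, and counts were summed by class and scaled per 1000000 (CPM). Ratios have exact conditional binomial intervals, levels exact Poisson and shares Clopper-Pearson intervals (95%). Genes with 30 or more counts over 2 classes were compared, a class at 0 was set to 3 counts, and called means 2-fold or more. Where a gene reached 30 counts through 1 class alone, the filter bore on its direction. No doublets were called. Thinning drew counts without replacement (seed 7). The text names the 8 members, list genes, the 8 genes that correlate best with the members' mean over all cells and over LP cells, and the 5 listed genes highest in LP; exceptions are stated. Fold and interval code was tested on simulated counts. Positions came from GENCODE on GRCm38, and promoters from RefSeq on GRCm38.p6. Python 3.11.15, numpy 2.4.6, scipy 1.17.1, pandas 2.3.3 and matplotlib 3.10.9 were used. Alternatives were other cut-offs, cleaner classes, thinning, equal weights, other totals, filters and folds.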

Additional observations from a re-analysis of the deposited data

How the results depend on the processing

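Every value rests on 1 library a class. Under each alternative 5 members, and 4 after thinning to 800 counts (Saa1 fell to 1.48-fold), were 2-fold or more higher in LP than in ML, and 4 than in basal cells, or 3 at a threshold of 4-fold. No fold changed direction. Of 84 alternative folds over ML 43 left the counting interval, as did 33 of 70 over basal and 27 of 96 shares of LP cells. These totals include settings that could not move a value, such as ML cells left out for folds over basal cells or for shares of LP cells. Among settings that could move a value, the part that left the interval was therefore larger. Folds over ML ranged from 10.1 to 200 (Trf), 7.51 to 247 (Ltf), 8.7 to 219 (Lcn2), 11.9 to 356 (Wfdc18), 1.48 to 49.7 (Saa1) and 0.103 to 0.279 (Slpi), the highest of the first 4 with all ML cells that had an LP marker count left out. Over basal they ranged from 16.5 to 54.7 (Trf), 59.4 to 230 (Ltf), 2.37 to 3.27 (Lcn2), 32.4 to 293 (Wfdc18) and 0.0192 to 0.042 (Slpi). Thinning gave a Wfdc18 fold of 161 over basal. Settings that left out ML or basal cells with any LP marker count, ML cells with few keratin counts and LP cells with 3 or more ML counts were chosen after seeing the data. With 10 or 100 counts as the minimum, 8% to 11.6% of all genes were 2-fold or more higher in LP than in ML and 10% to 13.3% than in basal cells. No paired analysis was possible because each group is 1 library, and no library could be left out. Few counts limit Pigr, Saa1 and Lpo.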
